A study of Mus musculus with 3 samples.

Results

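The genes described here were the 10 mouse genes that encode the vascular endothelial growth factors and angiopoietins and their receptor tyrosine kinases. They were chosen by symbol, from 31053 genes in the count matrix. No cut-off on a measured value was applied, but earlier results of these data were known when the set was chosen. The receptors were Flt1, Kdr, Flt4, Tek and Tie1, and the ligands were Vegfa, Vegfb, Vegfc, Angpt1 and Angpt2. All 10 had unique molecular identifiers (UMIs, one tag per captured RNA molecule) and passed the minimum of 20 UMIs over the 5 cell classes compared, so none was set aside.

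The vascular endothelial growth factors are secreted proteins that bind tyrosine kinases on the vessel wall. Kdr carries most of the growth and permeability signal of Vegfa, Flt1 binds Vegfa and Vegfb tightly and can act as a decoy, and Flt4 is the receptor of Vegfc and is best known from lymphatic vessels. Angpt1 activates the receptor Tek and stabilises vessels, Angpt2 is a context-dependent antagonist stored in endothelial cells, and Tie1 is an orphan receptor that modulates Tek. In the brain this system shapes vessel growth and the blood-brain barrier, and hypoxia is a classical inducer of Vegfa.

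The study sequenced single cells from mouse brain (strain label C56BL6, age 10 weeks) under 3 conditions, with 1 library of the 10x Genomics 3′ chemistry each. These were control mice, mice with Ischemic Stroke (IS), in which a suture closes the middle cerebral artery, and mice with Hemorrhagic Stroke (HS), in which collagenase is injected into the striatum. Tissue of several mice per condition entered 1 library, so animals could not be told apart. The single matrix held 3 barcode suffixes, and no label tied a suffix to a condition. All cells were therefore treated as 1 pooled sample. The conditions were not compared, no test across samples was possible, and every interval below covers counting error only.

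Of 35968 barcodes, 31982 had at least 1000 UMIs and at most 30% mitochondrial UMIs, with a median of 6147 UMIs. The cells kept numbered 8969, 13769 and 9244 in libraries 1, 2 and 3, with medians of 6389, 5801 and 6287.5 UMIs. Between 24 and 43 barcode sequences were shared by a pair of libraries. A cell entered a class when it passed the marker gate of that class only, which held for 26753 cells. No receptor or ligand of the set was a gate marker. The classes are named by their marker lists: 882 endothelial cells, 209 mural cells (pericytes and smooth muscle), 290 astrocytes, 10110 microglia and 9710 cells of the oligodendrocyte lineage. The endothelial list had UMIs of all 6 markers and reached 9704.6 CPM (counts of a gene per 1000000 UMIs summed over a class) against 16.3 CPM in T cells. The 7 astrocyte markers summed to 10826.7 CPM in astrocytes. Both sums are high by construction, because the gates used the same markers. The 8 oligodendrocyte markers summed to 452 CPM in endothelial cells and 822 CPM in mural cells, and 94.6% and 91.4% of those cells had at least 1 such UMI. The vascular classes came almost wholly from 1 library: 865 of 882 endothelial cells and 186 of 209 mural cells carried suffix 3. Over all libraries, vessel class and library therefore cannot be told apart. Library 3 also held 149 astrocytes, 1900 microglia and 3750 cells of the oligodendrocyte lineage, so classes can be compared within it. There Flt1 was 2804.5 CPM in endothelial cells, 86.7 in mural cells, 16.2 in astrocytes, 13.3 in microglia and 13.5 in the oligodendrocyte lineage. Kdr was 221, 1.33, 1.47, 4.91 and 12.6 CPM in the same order.

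The upstream sequences of 3 receptors are shown because the receptors shared the vessel as their site of highest expression. Each is the 250 bases before the RefSeq start (GRCm38.p6), read 5′ to 3′ on the strand of the gene. Capitals mark AGGAAG or CCGGAA on either strand, cores bound by ETS factors, a family with many endothelial members. They lie at chr5:147726012-147726261 (minus strand) for Flt1, at chr5:75978456-75978705 (minus strand) for Kdr and at chr4:94739039-94739288 (plus strand) for Tek.
Flt1: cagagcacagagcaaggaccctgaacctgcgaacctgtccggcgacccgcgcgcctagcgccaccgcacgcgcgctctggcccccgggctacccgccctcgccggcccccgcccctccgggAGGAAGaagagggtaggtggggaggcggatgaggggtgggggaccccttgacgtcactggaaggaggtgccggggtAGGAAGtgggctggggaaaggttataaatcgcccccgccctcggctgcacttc
Kdr: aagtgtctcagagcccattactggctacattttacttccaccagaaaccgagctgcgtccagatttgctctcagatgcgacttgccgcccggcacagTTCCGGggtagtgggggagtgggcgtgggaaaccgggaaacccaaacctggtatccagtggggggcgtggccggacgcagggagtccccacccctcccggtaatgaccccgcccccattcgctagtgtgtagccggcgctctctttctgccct
Tek: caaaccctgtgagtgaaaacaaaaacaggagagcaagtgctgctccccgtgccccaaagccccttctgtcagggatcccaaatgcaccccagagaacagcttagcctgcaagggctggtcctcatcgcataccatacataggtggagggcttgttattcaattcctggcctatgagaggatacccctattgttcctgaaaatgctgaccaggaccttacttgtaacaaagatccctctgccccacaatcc
Flt1 held 2 copies of AGGAAG, and Kdr held 1 copy of CCGGAA, read on the other strand as TTCCGG. The Tek window held neither. Among the other receptors the Tie1 window held 1 copy of AGGAAG and the Flt4 window none. These letters were common: AGGAAG occurred in 29.5% and CCGGAA in 12.03% of 32851 windows of the same length. ACGTG, the core of the hypoxia response element, was in 16.6% of those windows and in none of the receptor windows. Vegfa had 2 listed windows. The window before the annotated 5′ end of the gene held no ACGTG. The other window, at chr17:46025164-46025413, held 1 copy and lies inside the annotated gene (46016993 to 46032369, minus strand). Each match is a description of the letters alone.

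All 5 receptors were highest in endothelial cells, and the 5 ligands were spread over the vessel wall and the glia. A gene was called in a class when its level plus 10 CPM was at least 2 times the mean level of the other 4 classes plus 10 CPM, with at least 10 UMIs in the class. In endothelial cells 7 of the 10 genes were called, namely the 5 receptors with Vegfc and Angpt2, where 6.32% of 16130 genes tested were called. Mural cells had 1 gene called, Angpt1, against 5.77% of all genes. Astrocytes had 2, Vegfa and Vegfb, against 8.9%. Microglia and the oligodendrocyte lineage had 0, against 5.34% and 6.68%. Without library 3, 17 endothelial cells were left, in which 2 genes, Flt1 and Kdr, were called. Tek and Tie1 kept folds of 20.4 and 14.3 there, on 16 and 11 UMIs, but had fewer than the 20 UMIs over the 5 classes that the rule asks for, as had Flt4 (fold 8.26 on 6 UMIs) and Vegfc (2.19 on 1 UMI). The fold of Angpt2 was 1.2003. In the 23 mural cells left, 0 genes were called, and Angpt1 had a fold of 2.97 on 6 UMIs. In the 141 astrocytes left, Vegfa kept its call (fold 11.1), Angpt1 was called (2.13 on 17 UMIs) and Vegfb was not (1.95). With a fold of 4 the calls of Vegfc (fold 3.76) and Angpt2 (2.24) in endothelial cells were lost, as were those of Angpt1 in mural cells (2.55) and Vegfb in astrocytes (2.24). The median fold of the 5 receptors in endothelial cells was 16.2, and the median over all genes tested was 0.943. The ligands had a median fold of 0.478 in endothelial cells and 1.62 in astrocytes.

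**Figure D1:**
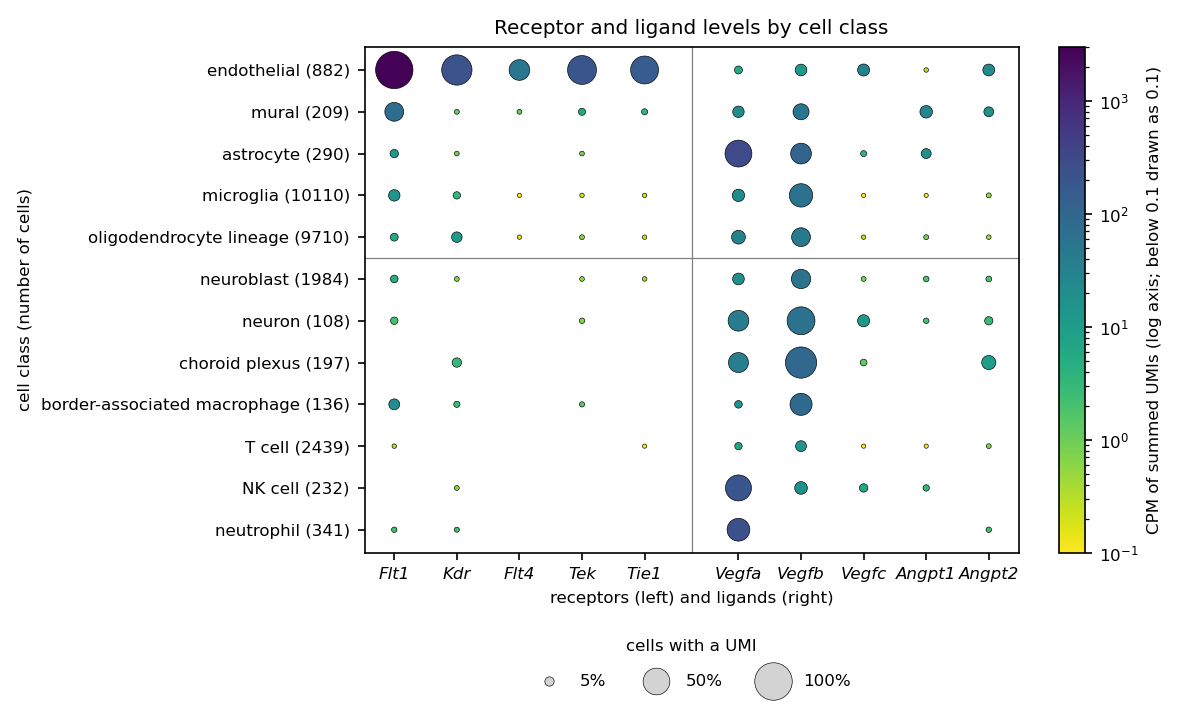
Dot plot of the 10 genes (columns) in 12 cell classes (rows, with the number of cells). Colour gives the level in CPM on a log scale and dot area the share of cells with a UMI, and no dot is drawn for 0 UMIs. The receptors concentrate in the endothelial row, while Vegfa is darkest in astrocytes, neutrophils and NK cells.

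Flt1, the high-affinity VEGF receptor, was by far the most abundant transcript of the set. It reached 2799.7 CPM in endothelial cells (95% interval 2759.7 to 2840.0, 18748 UMIs) and had a UMI in 99.2% of them, with a median of 16 UMIs per cell and 144 in the highest cell. Library 3 gave 2804.5 CPM, the 15 endothelial cells of library 2 gave 2563.4 CPM and the 2 of library 1 gave 917 CPM on 7 UMIs. The level was thus similar in the 2 libraries with more than 10 endothelial cells. The next class, mural cells, was 36.4 times lower (28.7 to 47.0).

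Kdr, the main signalling receptor of Vegfa, reached 221 CPM (210 to 233) in endothelial cells and was detected in 65.0% of them. In library 3 it was 221 CPM and in library 2 it was 280 CPM on 21 UMIs. Tek, the angiopoietin receptor, reached 195 CPM and 58.8% of cells, and its partner Tie1 reached 151 CPM and 54.9%. Flt4, the Vegfc receptor, was the lowest receptor at 52.4 CPM, with a UMI in 29.5% of endothelial cells. As each UMI is one 3′ tag, these levels do not depend on transcript length, but they do depend on how well each 3′ end is captured. The counts were given per gene and do not separate the soluble and membrane forms of Flt1.

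T cells served as a class that should lack the vascular receptors, but only 23 of them were in library 3, so they say little of the background in the library that held the endothelial cells. Kdr, Flt4 and Tek had 0 UMIs in 2439 T cells, which allows up to 0.279 CPM, and Flt1 had 5 UMIs and Tie1 1. The 669 neuroblasts of library 3 had 13.2 CPM of Flt1, 1.51 CPM of Tek, 1.30 CPM of Kdr, 1.08 CPM of Tie1 and 0 UMIs of Flt4. The median depth of T cells was 4756 UMIs and that of endothelial cells 5400. When every cell was thinned to 1000 UMIs, the share of endothelial cells with a UMI was 91.2% for Flt1, 20.1% for Kdr, 17.7% for Tek, 13.8% for Tie1 and 5.33% for Flt4. The thinned share in T cells was 0.0410% for Flt1 and 0 for Kdr, Flt4 and Tek.

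Single endothelial cells often carried several receptors. All 5 were seen together in 119 of 882 cells (13.5%), 3 of the 5 in 272 cells and none in 4. Flt1 and Kdr were seen together in 64.9% of cells and Kdr and Tek in 42.7%. After thinning, the share with Flt1 and Kdr was 18.8% and that with Kdr and Tek 3.74%, so these shares moved with depth.

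**Figure D2:**
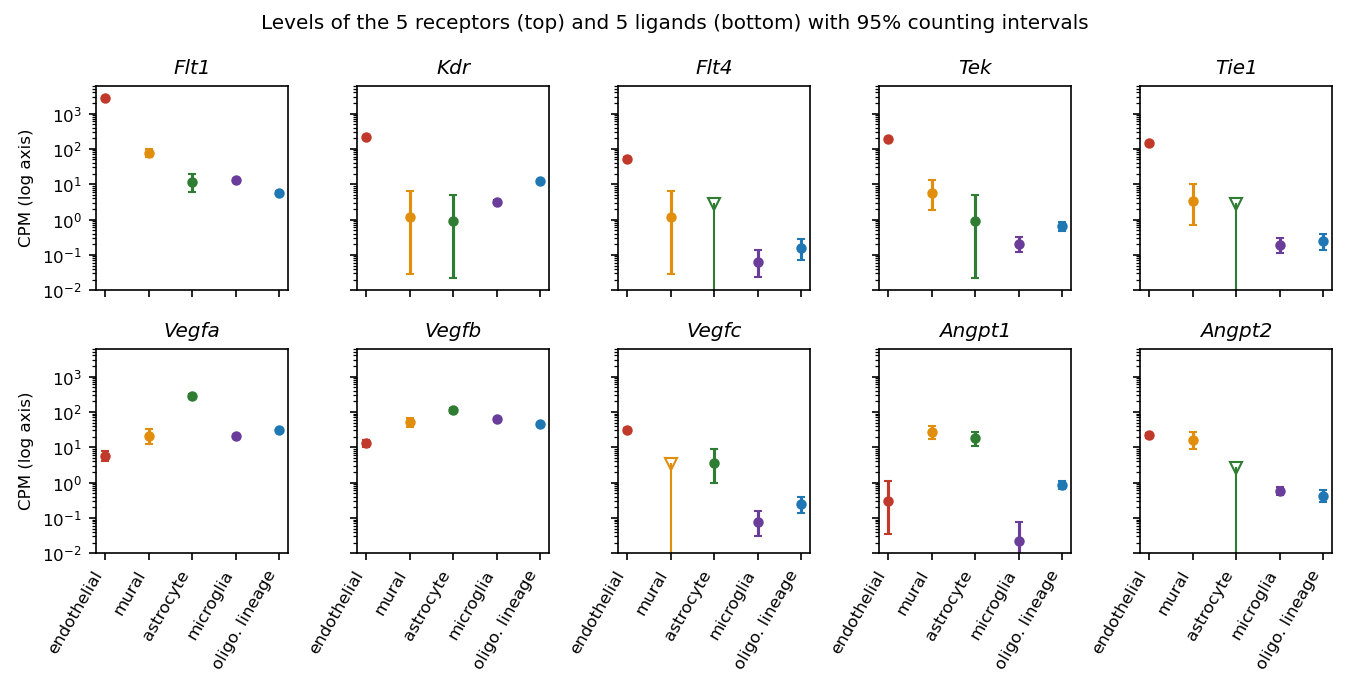
Level of each gene in CPM on a log axis in the 5 classes, with 95% Poisson intervals of the summed UMIs. Open triangles mark classes with 0 UMIs at the level that 3 counts would give. The 5 receptors (top row) peak in endothelial cells, and the highest ligand level (bottom row) is 291 CPM, for Vegfa in astrocytes.

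The endothelial cells were divided by arterial, capillary and venous markers into 80, 469 and 238 cells, with median depths of 7596, 4861 and 9606 UMIs. Vegfc, the ligand of Flt4, stood apart in arterial cells. It reached 190.6 CPM there (151 UMIs, 55.0% of cells), 6.36 CPM in capillary cells and 5.84 CPM in venous cells. The arterial level was 29.96 times the capillary level (17.9 to 53.8) and 32.6 times the venous level (19.7 to 57.5). Thinned to 1000 UMIs, 11.2% of arterial, 1.07% of capillary and 1.26% of venous cells had a Vegfc UMI. All but 2 of the 80 arterial cells came from library 3, and those 2 had 0 Vegfc UMIs. Vegfa was low in endothelial cells and was also highest in the arterial ones, at 21.5 CPM in arterial cells on 17 UMIs and 3.58 CPM in capillary cells, a ratio of 5.996 (2.53 to 15.3).

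The receptors differed far less along the vessel. Kdr was highest in capillary cells at 276 CPM, which was 1.42 times the venous level (1.27 to 1.58), and the arterial level of 175 CPM did not differ from the venous one beyond counting error (ratio 0.899, 0.741 to 1.08). Tek was highest in arterial cells at 261 CPM, 1.55 times the capillary level (1.31 to 1.83). Flt1 was 3241.6 CPM in arterial and 3145.6 CPM in capillary cells, an interval of the ratio that includes 1 (0.985 to 1.08), and 2351.7 CPM in venous cells. Flt4 was 59.5 CPM in venous, 48.5 CPM in capillary and 39.1 CPM in arterial cells. The arterial level was 0.658 times the venous one (0.434 to 0.969), and neighbours in this order did not differ beyond counting error. Flt4 was seen in 45.7% of the 81 endothelial cells with a Vegfc UMI and in 27.8% of those without, and after thinning in 1 of 20 and 46 of 862 cells. Tie1 varied between 141 and 177 CPM. Angpt2 was 29.0 CPM in capillary and 13.4 CPM in venous cells, a ratio of 2.17 (1.45 to 3.28).

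**Figure D3:**
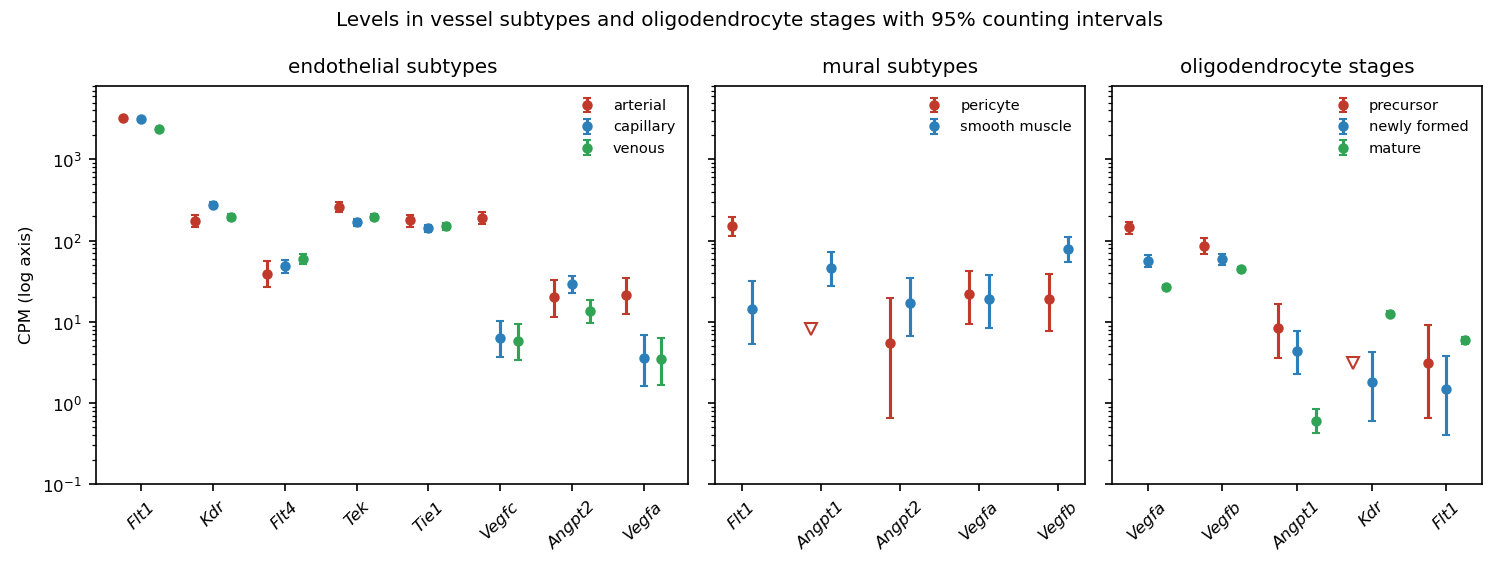
Levels in CPM on a log axis, with 95% Poisson intervals, in 3 endothelial subtypes, 2 mural subtypes and 3 stages of the oligodendrocyte lineage. Open triangles mark 0 UMIs at the level that 3 counts would give. Vegfc separates arterial from other endothelial cells, and Flt1 and Angpt1 run in opposite directions in pericytes and smooth muscle. With the libraries pooled, Vegfa falls along the stages while Kdr is higher at the mature stage.

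Pericytes, which wrap capillaries, and smooth muscle cells, which surround arteries, split the set. Flt1 was 149 CPM in 114 pericytes (55 UMIs, 36.0% of cells) and 14.4 CPM in 73 smooth muscle cells (6 UMIs), a ratio of 10.4 (4.46 to 29.4). In library 3 alone the ratio was 8.97 (3.61 to 28.7). The smooth muscle value was not stable, at 7.41 CPM with a higher minimum of UMIs per cell and 923 CPM with cells passing several gates kept, and it was within 1.5 times of the reported value in 6 of 12 alternatives. The 6 endothelial markers summed to 404 CPM in pericytes and 60.1 CPM in smooth muscle, and Flt1 stood to Tek as 18.3 to 1 in pericytes and 14.3 to 1 in endothelial cells. The pericyte value of Tek rests on 3 UMIs. The endothelial marker Cldn5 had 34 UMIs beside 55 of Flt1 in pericytes, and 38636 beside 18748 in endothelial cells. The part of endothelial RNA in the Flt1 of pericytes was not tested. Kdr had 0 UMIs in both mural subtypes. Angpt1, the Tek agonist, ran the other way, with 45.7 CPM in smooth muscle (19 UMIs, 23.3% of cells) and 0 UMIs in pericytes. The pericyte level was at least 4.13-fold lower, by the lower end of the exact interval of the ratio. Vegfb was 79.3 CPM in smooth muscle and 19.0 CPM in pericytes, a ratio of 4.18 (1.82 to 11.2). The smooth muscle cells were deeper, at a median of 6233 UMIs against 3152.5. Library 3 gave 111 of the 114 pericytes and 53 of the 73 smooth muscle cells, and library 2 gave 19 of the latter. In mural cells of libraries 2 and 3, Angpt1 was 53.4 and 24.0 CPM and Vegfb 71.2 and 49.4 CPM. The part of the library in the Angpt1 and Vegfb ratios was not tested.

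Outside the vessel, Kdr was seen in mature oligodendrocytes. It reached 12.6 CPM (11.7 to 13.5, 769 UMIs) in 9239 mature cells, and 7.08% of them had a UMI. The level was 13.2, 11.9 and 12.7 CPM in libraries 1, 2 and 3. It was thus nearly the same in the library with 865 gated endothelial cells and in the one with 2. In libraries 1 and 2 together the 2416 T cells had 0 Kdr UMIs. The mature level of 12.4 CPM was at least 44.1-fold higher, by the lower end of the exact interval of the ratio. Library 3 had too few T cells for such a bound. There the mature level was 9.80 times that of neuroblasts (4.45 to 26.9). Newly formed cells had 1.84 CPM on 5 UMIs and the 196 precursors had 0 UMIs. All 5 UMIs were in the 48 newly formed cells of library 3, at 8.62 CPM (2.80 to 20.1). That interval includes the mature level of library 3. Newly formed cells of libraries 1 and 2 had 0 UMIs, which allows up to 2.75 and 4.62 CPM. The 34 precursors of library 3 allow up to 30.3 CPM. The endothelial level was 18.6 times that of the whole lineage (17.0 to 20.3).

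In libraries 1 and 2 the mature cells held few or no UMIs of the other endothelial genes counted. In library 1 the 2138 mature cells held 208 Kdr UMIs, 3 Flt1 UMIs, 2 UMIs of the tight junction gene Cldn5 and 0 of Tek, Tie1 and Flt4. In library 2 the 3433 mature cells held 247 Kdr, 22 Flt1, 4 Cldn5 and 0 Tek UMIs. Endothelial cells as a whole had 12.7 Flt1 UMIs for each Kdr UMI. Of the 180 mature cells with a Kdr UMI in library 1, 0 had a Cldn5 UMI, and of the 210 in library 2 also 0. In library 3, with most of the endothelial cells, Cldn5 was seen in 15.9% of mature cells with Kdr and 16.1% of those without. There the mature cells held 336 Flt1 UMIs. Cells with a Kdr UMI were deeper (median 7558 against 6045 UMIs), 97 of 654 had 2 or more, and 0.612% of them were called doublets against 1.47% of the rest. After thinning, 1.27% of mature cells had a Kdr UMI. The source of the Kdr UMIs in mature cells was not tested.

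Microglia carried low levels of Flt1 and Kdr. Flt1 reached 13.3 CPM (12.53 to 14.02, 1227 UMIs), at 8.82, 15.8 and 13.3 CPM in libraries 1, 2 and 3, and 8.19% of cells had a UMI. In libraries 1 and 2 together the level was 43.5 times that of T cells (17.0 to 160.1), which had 0.305 CPM on 4 UMIs. In library 3 it was no higher than in other classes, with 13.2 CPM in neuroblasts and 13.5 CPM in the oligodendrocyte lineage (ratio to neuroblasts 1.01, 0.746 to 1.37). In libraries 1 and 2 together the microglia level was also 51.7 times that of neuroblasts (14.3 to 427.5), which had 0.256 CPM on 2 UMIs. The microglia level of 13.3 CPM without library 3 pools 2 unlike libraries. Library 1 had 8.82 CPM (7.77 to 9.97) and library 2 had 15.8 CPM (14.7 to 16.9). The source of the Flt1 UMIs in microglia was not tested. Libraries 1 and 2 held 254 and 808 Flt1 UMIs in microglia beside 0 and 2 Tek UMIs and 4 and 9 Cldn5 UMIs. In library 3 there were 9.71 Flt1 UMIs per Tek UMI in microglia and 14.4 in endothelial cells. The 828 cells with Flt1 had a median of 13512 UMIs against 7250 in the rest, 221 of them had 2 or more Flt1 UMIs, and the highest had 21. Thinned to 1000 UMIs, 1.12% of microglia had Flt1. Kdr was 3.19 CPM in microglia, at 2.95, 2.90 and 4.91 CPM by library. Flt4, Tek and Tie1 were at 0.0648, 0.205 and 0.195 CPM in microglia.

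**Figure D4:**
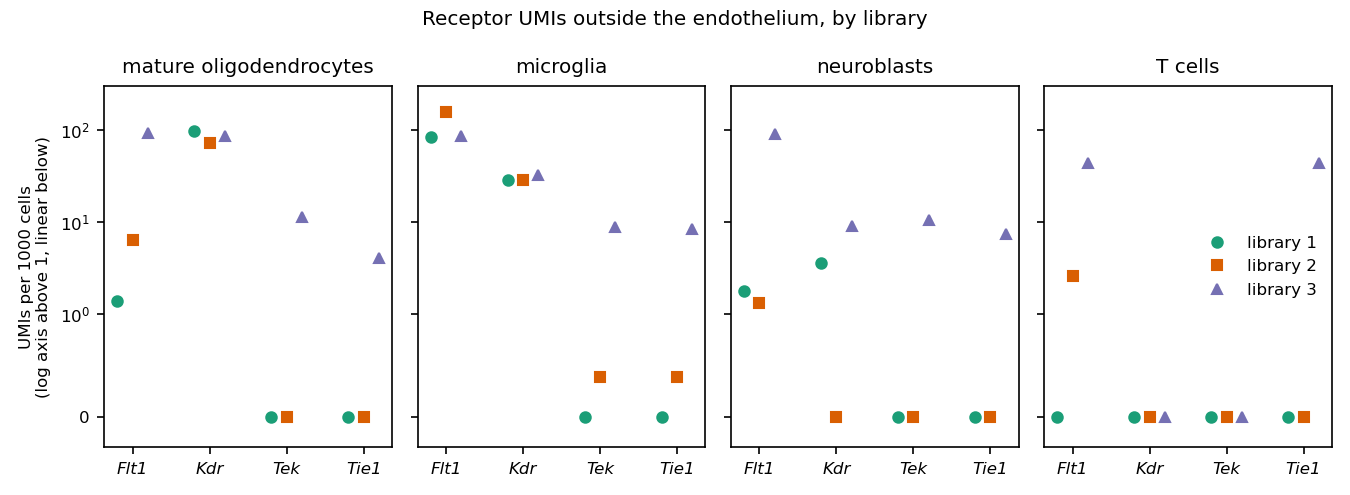
UMIs of 4 receptors per 1000 cells in 4 classes without vessel identity, by library (a log axis above 1 and linear below). Kdr in mature oligodendrocytes lies between 0.0719 and 0.0973 UMIs per cell and Flt1 in microglia between 0.0847 and 0.155. In library 3 Flt1 is at like heights in microglia, mature oligodendrocytes and neuroblasts, and Tek and Tie1 appear almost only in that library. Its T cell points rest on 23 cells, with 1 UMI each of Flt1 and Tie1 and 0 of Kdr and Tek.

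Vegfa, the hypoxia-inducible ligand of Flt1 and Kdr, was highest in astrocytes among the 5 classes. It reached 291 CPM (328 UMIs), with 333, 230 and 307 CPM in libraries 1, 2 and 3, and 50.7% of astrocytes had a UMI. This was 50.01 times the endothelial level of 5.82 CPM (35.8 to 71.6), and 9.73 times the level of the oligodendrocyte lineage (8.63 to 10.9). Endothelial cells were thus the lowest of the 5 classes for the ligand and the highest for its receptors. The astrocytes were shallow, at a median of 2947.5 UMIs, and their thinned share was 23.4%, against 0.490% in T cells. Under a mitochondrial limit of 10% the astrocyte level was 194 CPM. Astrocytes with a UMI of Agt, an astrocyte gene of non-cortical regions, had 408 CPM of Vegfa and those without had 210 CPM.

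Vegfa fell along the oligodendrocyte lineage. Precursors had 145 CPM, newly formed cells 56.2 CPM and mature cells 27.0 CPM, so that precursors were 5.37 times the mature level (4.49 to 6.39). The order held in each library. Precursors had 111, 135 and 313 CPM in libraries 1, 2 and 3, newly formed cells 49.9, 56.4 and 70.7 CPM, and mature cells 22.4, 30.4 and 27.0 CPM. The summed astrocyte markers were 611 CPM in precursors and 35.3 CPM in mature cells. Their part in this order was not tested.

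Immune cells held Vegfa as well. Neutrophils had 239 CPM (316 UMIs in 341 cells, 36.1% with a UMI) and NK cells 193 CPM (296 UMIs in 232 cells, 47.4%), while T cells had 6.64 CPM. The ratio to T cells was 36.0 for neutrophils (28.4 to 46.2) and 29.1 for NK cells (22.8 to 37.3). Neutrophils were uneven among libraries, at 320 CPM in library 1, 192 CPM in library 2 and 22.0 CPM in the 33 cells of library 3, and without library 1 they had 92.3 CPM. NK cells had 204 and 162 CPM in libraries 1 and 2, and library 3 had only 4 of them. Microglia had 20.8 CPM, with 9.78% of cells positive and up to 17 UMIs in a cell, and border-associated macrophages had 14.7 CPM on 11 UMIs in 4 cells, which became 2.92 CPM without the 11 cells of library 1. By number rather than level, microglia and the oligodendrocyte lineage held 27.1% and 27.3% of the 7126 Vegfa UMIs in all kept cells, and astrocytes 4.603%.

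**Figure D5:**
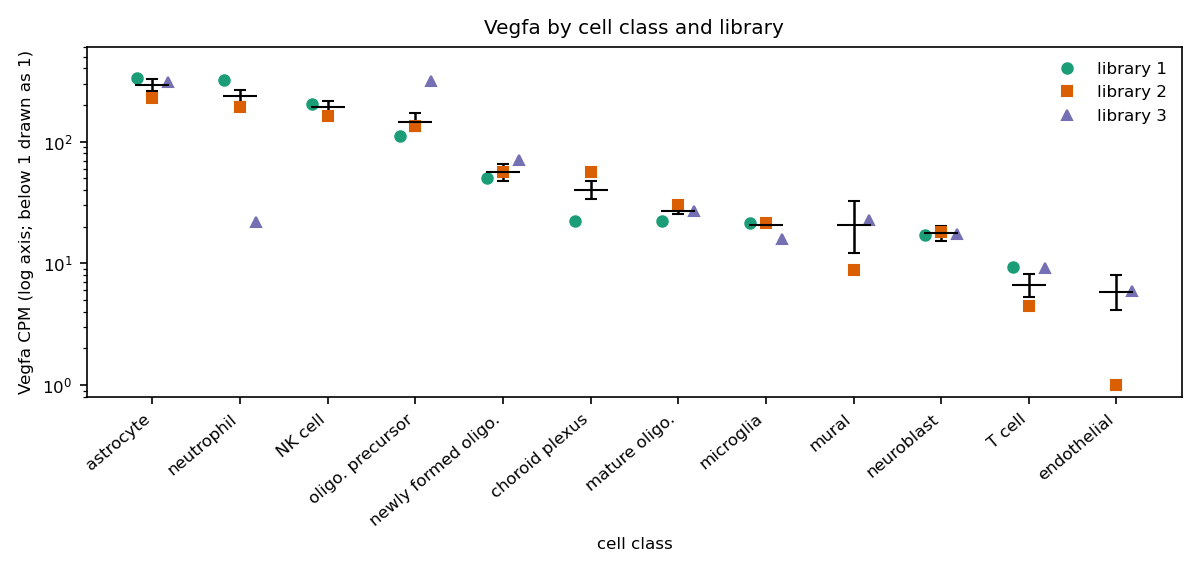
Vegfa level in CPM on a log axis by cell class. Horizontal marks with bars give the level over all libraries with its 95% Poisson interval, and coloured points give libraries with at least 10 cells of the class, a level of 0 being drawn at the bottom. Astrocytes lie between 230 and 333 CPM in the 3 libraries, and the 33 neutrophils of library 3 lie at 22.0 CPM.

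Vegfb, a ligand of Flt1 linked to metabolism more than to vessel growth, was the most evenly spread gene. It reached 111 CPM in astrocytes, 65.1 CPM in microglia, 51.6 CPM in mural cells, 46.3 CPM in the oligodendrocyte lineage and 12.99 CPM in endothelial cells. Astrocytes exceeded microglia 1.71 times (1.42 to 2.04), whereas microglia and mural cells did not differ beyond counting error. Choroid plexus cells had 95.4 CPM and border-associated macrophages 92.1 CPM. Neutrophils had 0 UMIs of Vegfb. Microglia had 68.1, 65.1 and 57.7 CPM in libraries 1, 2 and 3, and mature oligodendrocytes 53.3, 57.0 and 29.99 CPM, so library 3 was the lowest in both.

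Vegfc reached 31.2 CPM in endothelial cells as a whole (209 UMIs) and had 0 UMIs in mural cells, 4 in astrocytes and 7 in microglia. Only 9.18% of endothelial cells had a UMI, and the arterial cells held 151 of the 209. The level was 31.4 CPM in library 3, and libraries 1 and 2 gave 0 and 1 UMI.

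The angiopoietins were rare. Angpt1 had 203 UMIs in all kept cells. It was 27.5 CPM in mural cells (24 UMIs), 17.8 CPM in astrocytes (20 UMIs) and 0.299 CPM in endothelial cells (2 UMIs). Over all libraries mural cells and astrocytes did not differ beyond counting error (ratio 1.55, 0.821 to 2.96), but the libraries differed in both. Within library 3 the mural level was 24.0 CPM and 5.45 times the astrocyte level (1.59 to 28.9), and within library 2 it was 53.4 CPM and 2.16 times (0.599 to 7.50). The 2 mural cells of library 1 had 0 UMIs. With the libraries pooled, mural cells and astrocytes both stood far above endothelial cells, where the receptor Tek was highest. For astrocytes this contrast crosses libraries, as 865 of the 882 endothelial cells were in library 3. Within astrocytes, Angpt1 was 61.7, 24.7 and 4.40 CPM in libraries 1, 2 and 3, on 10, 7 and 3 UMIs. The precursors had 8.34 CPM and mature oligodendrocytes 0.604 CPM, a ratio of 13.8 (5.56 to 30.1) on 8 and 37 UMIs. An antisense gene, Gm17473, overlaps Angpt1 on the opposite strand.

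Angpt2 was 22.0 CPM in endothelial cells (147 UMIs, 8.84% of cells) and 16.1 CPM in mural cells (14 UMIs), levels whose ratio of 1.37 had an interval that included 1 (0.789 to 2.56). Astrocytes had 0 UMIs, which allows up to 3.28 CPM. Among other classes, choroid plexus cells had 9.44 CPM on 31 UMIs. The 18 fibroblasts had a higher value of 50.5 CPM (16.4 to 117.8), but on 5 UMIs. Angpt2 lies on the opposite strand within the span of Mcph1. Of 882 endothelial cells, 81 had a Vegfc UMI, 78 had an Angpt2 UMI and 9 had both.

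The other genes of the pathway numbered 38, of which 35 could be tested. In endothelial cells 17 of the 35 were called, where 6.32% of all genes tested were, and Cdh5 among the 17 was an endothelial gate marker. The list was chosen with earlier results of these data known and includes genes listed for endothelial roles. Its endothelial shares, here and in the groups below, are therefore a description and no test. Mural cells had 4 called (5.77% of all genes), astrocytes 1 (8.9%), microglia 3 (5.34%) and the oligodendrocyte lineage 2 (6.68%). The median fold of the list in endothelial cells was 1.93, and 9 genes were called there without library 3. Among receptor partners, Ptprb, the phosphatase that restrains Tek, was the most endothelial at 800.4 CPM against at most 4.59 CPM in the other 4 classes. Cdh5, the gate marker, is the cadherin of endothelial junctions. Nrp1, the VEGF co-receptor, was 114 CPM in endothelial cells and 67.2 CPM in microglia. Nrp2, the co-receptor linked to Vegfc, was called in microglia at 53.6 CPM and reached 44.2 CPM in endothelial cells. Itgb1 was called in mural cells at 634 CPM.

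Of the endothelial growth and tip cell genes, a group listed for its endothelial role, 5 of 7 tested were called in endothelial cells, against 6.32% of all genes. Dll4, a Notch ligand, reached 119 CPM, Pdgfb, which recruits pericytes, 316 CPM, Cd34 452 CPM and Adm 95.6 CPM. The tip cell genes Esm1, Aplnr and Kcne3 had too few UMIs to be tested, and Apln was at 3.73 CPM in endothelial cells, 41.7 CPM in astrocytes and 36.9 CPM in the oligodendrocyte lineage. Unc5b, a netrin receptor of tip cells, was highest in the oligodendrocyte lineage at 126 CPM. Pgf, the third ligand of Flt1, was called in mural cells at 86.0 CPM, and Vegfd and Angpt4 were called in no class.

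The downstream genes had 5 of 9 called in endothelial cells, against the same 6.32%, among them Nos3, the endothelial nitric oxide synthase, at 143 CPM and the flow-responsive Klf2 at 6808.5 CPM. Rcan1, a calcineurin feedback gene, was called in microglia at 279 CPM. Of 9 hypoxia genes, 4 were called in endothelial cells, against 6.32% of all genes. They were Slc2a1, the glucose transporter of the blood-brain barrier, at 2510.1 CPM, Epas1 at 838 CPM, Ldha at 569 CPM and Ankrd37 at 141 CPM. In astrocytes 0 of the 9 were called, against 8.9% of all genes, and Pgk1 was 171 CPM there and 123 CPM in endothelial cells.

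The genes with patterns most like each member were found across 18 gated classes. Over log2(CPM + 10), Pearson's r was 0.998 between Tek and Slc19a3, 0.999 between Tie1 and Gm32688, 0.997 between Tek and Tie1, 0.981 between Flt1 and Ly6c1, 0.988 between Kdr and Thsd1 and 0.9999 between Flt4 and Sele. Vegfc was closest to Ndnf (0.916), Angpt2 to Slc22a8 (0.953) and Angpt1 to Lrig1 (0.919). Vegfa and Vegfb had no close neighbour, with highest values of 0.759 (Armt1) and 0.874 (1190007I07Rik), and the r between them was 0.0967. The classes share libraries, and a single class with a high level can fix such a value.

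A large share of the vascular transcripts lay in cells left out of the classes. The 572 cells that passed the endothelial and another gate held 17417 of the 38331 Flt1 UMIs (45.4%), 46.6% of Tek and 43.3% of Vegfc. In the 275 that passed the endothelial and mural gates only, the median was 12071 UMIs, Flt1 was 2476.5 CPM, Angpt1 5.40 CPM and Vegfc 43.2 CPM. The 2796 cells that passed no gate had a median of 1835 UMIs and 81.5 CPM of Vegfa. Kdr was the receptor least confined to endothelial gates, with 18.6% of its 4171 UMIs in the oligodendrocyte lineage and 7.07% in microglia.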

How the data were processed

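The measured quantity was 3′ UMI counts of single cells from brain tissue of 3 conditions, 1 library each. The deposited values were whole-number counts per gene and barcode, which the authors made with Cell Ranger 3.1.0 (STAR, mm10) and down-sampled across libraries, without scaling per cell. Barcodes that a filter of the methods would remove were still present.

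Cells with at least 1000 UMIs and at most 30% mitochondrial UMIs were kept. A gate needed 6 marker UMIs (10 for microglia and mature oligodendrocytes) from 3 markers, and cells passing gates of several classes were left out. The marker lists, the 38 pathway genes and the set itself were chosen with earlier results of these data known, and the gate thresholds after marker counts were seen. Counts were summed per class and given as CPM with exact Poisson intervals, ratios with exact conditional intervals and shares with Clopper-Pearson intervals, all at 95%. Thinning drew 1000 UMIs per cell. Doublets were called within each library with the Scrublet method of scanpy 1.11.5 (4.68% of barcodes) and left out only as an alternative. The call of genes by class was tested on simulated data. Genes named were the 10, the pathway list and the 3 genes nearest in pattern to each. Identifiers of 99.6% of 31053 genes matched GENCODE M21 (GRCm38). Promoter windows came from RefSeq, which gave none for Angpt1 and Angpt2. The Tie1 and Flt4 windows overlap other annotated transcripts and are not printed. Python 3.11.15 and SciPy 1.17.1 were used.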

Additional observations from a re-analysis of the deposited data

How the results depend on the processing

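Of 180 counts recomputed under 18 alternatives, 158 stayed within 1.5 times the reported count. Part of this was fixed in advance. A change of pseudocount, fold, reference classes or minimum of UMIs per feature cannot alter which class, subtype or stage is highest. Without barcode suffix 3, which left 17 endothelial cells, 2 of the 10 genes were called in endothelial cells (Flt1 and Kdr, while Tek and Tie1 kept folds of 20.4 and 14.3 on too few UMIs), 0 in mural cells and 9 pathway genes in endothelial cells, while 1 gene was highest in arterial cells, in place of 5, and 0 were higher in smooth muscle, in place of 2. In astrocytes the genes called without that suffix were Vegfa and Angpt1, in place of Vegfa and Vegfb. With cells passing several gates kept in each class, 6 genes were called in mural cells, 5 of them receptors, and 4 were higher in smooth muscle. Thinned to 1000 UMIs, the calls were 0 in mural cells and 1 in astrocytes, 3 genes were highest in arterial cells, 0 were higher in smooth muscle and 2 were highest in precursors, in place of 6. Tie1 was counted among the 6 on 1 UMI in precursors. The mural call was 2 with a pseudocount of 1 CPM or against pooled other cells, and 0 with a pseudocount of 50 CPM, against the highest other class, with a fold of 4 or with the mean CPM per cell. The astrocyte call was 1, Vegfa, with a pseudocount of 50 CPM, against the highest other class and with a fold of 4, which also left 5 genes called in endothelial cells, without Vegfc and Angpt2. Against the highest other class 10 pathway genes were called in endothelial cells. Except where fewer cells, fewer UMIs or a stricter rule were part of the alternative, the cause was not tested.

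Of 324 levels recomputed, 296 stayed within 1.5 times. Kdr in mature oligodendrocytes ranged from 12.2 to 15.5 CPM and Flt1 in endothelial cells from 2392.3 to 2994.3 CPM. Flt1 in pericytes rose to 2000.8 CPM with cells passing several gates kept, and Flt1 in microglia to 26.7 CPM, and Flt1 in smooth muscle ranged from 7.41 to 923 CPM. Vegfa in neutrophils was 92.3 CPM without barcode suffix 1. Without barcode suffix 3, Vegfc in endothelial cells was 12.1 CPM, Angpt2 12.1 CPM and Angpt1 in mural cells 49.1 CPM. Angpt1 in smooth muscle was 0 after thinning. Angpt1 in astrocytes was 38.2 CPM without barcode suffix 3. No paired analysis was possible because no replicate number or suffix tied the libraries to conditions.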
